A study of Mus musculus with 8 samples.

Results

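The brakes and sensors upstream of mTORC1 were followed in activated mouse B lymphocytes lacking Myc, Max or both. They were 10 genes fixed by name, Ddit4, Sesn1, Sesn2, Sesn3, Tsc1, Tsc2, Depdc5, Rheb, Rptor and Akt1s1. All 10 were matched by gene identifier among the 15681 genes of the table, and all 10 were among the 12441 genes tested, which had to reach 1 RPM in 2 or more libraries. RPM, the unit of every level here, is a gene's estimated reads scaled to 1 M reads of the library's effective size.

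Mature B cells were sorted from spleens of mice aged 8 to 10 weeks and activated in culture with lipopolysaccharide at 20 µg/ml and interleukin 4 at 20 ng/ml, which drive proliferation and class switching, until harvest at 72 h. Cells lacked Myc (Myc_KO), Max (Max_KO) or both (double_KO), and the control cells were heterozygous rather than wild type. Each group had 2 libraries. The labels name neither the Cre driver nor the heterozygous allele. They leave unsaid whether each library is a mouse of its own, and a p-value here can therefore reflect technical spread alone. Groups follow the sample titles, which are also the column names of the values; for 2 libraries, Myc_KO replicate 2 and double_KO replicate 1, the description field gives the other of these 2 genotypes.

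mTORC1 is the protein kinase complex that couples amino acid supply, energy and growth factor signals to protein synthesis and cell growth, and in B cells it is switched on when they are activated. Its brakes work in separate arms. The Tsc1-Tsc2 complex turns off Rheb, the small GTPase that activates the kinase at the lysosome, and Ddit4 (also called REDD1) acts through that complex under stress. Sestrins restrain the kinase by binding GATOR2, which otherwise holds GATOR1 in check; GATOR1, whose subunit Depdc5 is measured here, turns off the Rag GTPases that bring mTORC1 to the lysosome. Rptor (Raptor) is the scaffold that recruits substrates to mTORC1, and Akt1s1 (PRAS40) is a subunit that inhibits it. Rheb and Rptor are therefore activating components and the other 8 are brakes.

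Libraries held 14.88 to 17.91 M estimated reads. The targeted genes were read first. Myc was at 48.3 and 55.7 RPM in Myc_KO, 192 and 176 in Max_KO, 38.7 and 55.3 in double_KO, and 111 and 116 in control. Max was at 70.4 and 59.8 RPM in Myc_KO, 16.4 and 15.5 in Max_KO, 28.6 and 31.2 in double_KO, and 55.0 and 54.5 in control. In the 2 libraries with conflicting labels, Max was above both controls in Myc_KO replicate 2, at 59.8 RPM, and below both in double_KO replicate 1, at 28.6, as their titles would have it. Mitochondrially encoded transcripts made up 2.21% to 2.96% of reads in the 6 knock-out libraries and 5.69% and 4.93% in control. All 7 B cell markers were present, summing to 6260 to 7553 RPM in knock-out libraries and to 5214 and 5104 in control. In each genotype limma called Ms4a1 and Pax5 higher and did not call the other 5. The 6 T cell markers, of which Thy1 gave most, summed to 89.3 to 239 RPM in knock-out libraries, against 325 and 277 in control. Cd8a, a marker of cytotoxic T cells, went the other way, at 6.91 to 20.9 RPM in knock-out libraries, against 0.996 and 1.33 in control. Cd3e was at 0.932 to 3.33, against 0 and 0.243. Of the 6 T cell markers, limma called 5 higher and 1 lower in Myc_KO. It called 3 higher and 1 lower in Max_KO, and 4 higher and 1 lower in double_KO. Of 7 myeloid markers 4 were in the table and summed to 8.79 to 29.9 RPM in knock-out libraries, against 2.44 and 3.39 in control, mostly Adgre1. Of 3 natural killer cell markers 2 were in the table, summing to 1.72 to 7.44 RPM, against 0.187 and 0.0606. The 5 plasma cell markers summed to 574 to 1100 RPM in knock-out libraries, against 1259 and 1206 in control. Xbp1 and Jchain gave much of that sum, and limma called Xbp1 lower in all 3 genotypes and Jchain lower in Max_KO; no other plasma cell marker passed against control. Sdc1, a surface marker of plasma cells, was at 8.23 and 14.9 RPM in Myc_KO, 2.94 and 3.02 in Max_KO, 8.83 and 16.5 in double_KO, and 5.98 and 5.94 in control. Prdm1, their master regulator, was at 44.1 and 69.2 RPM in Myc_KO, 18.5 and 35.1 in Max_KO, 37 and 65.2 in double_KO, and 39.03 and 39.1 in control. None of 3 erythroid markers was in the table. These shifts moved with genotype, and their part in the results was not tested.

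The 250 bases before the start site of 5 members are printed because Myc-Max dimers are known to bind the E-box CACGTG. Ddit4 and Sesn2, whose transcripts fell, and Sesn1 and Sesn3, whose transcripts rose, can be set beside Rheb. Rheb is the only member with this E-box in its window. Sequences are RefSeq's on GRCm38.p6, 5′ to 3′ on the gene's strand: Ddit4 at chr10:59951771-59952020 (minus), Sesn1 before its first start at chr10:41810324-41810573 (plus), Sesn2 at chr4:132510457-132510706 (minus), Sesn3 at chr9:14276051-14276300 (plus) and Rheb at chr5:24842362-24842611 (minus). Capitals mark CACGTG in Rheb and ACGTG, the core of the hypoxia response element, in Ddit4.
Ddit4: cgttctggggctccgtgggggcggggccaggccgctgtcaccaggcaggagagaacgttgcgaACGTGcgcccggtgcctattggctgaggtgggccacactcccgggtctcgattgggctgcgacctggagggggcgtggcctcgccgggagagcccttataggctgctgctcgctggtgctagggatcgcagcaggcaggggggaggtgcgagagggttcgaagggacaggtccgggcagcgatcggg
Sesn1: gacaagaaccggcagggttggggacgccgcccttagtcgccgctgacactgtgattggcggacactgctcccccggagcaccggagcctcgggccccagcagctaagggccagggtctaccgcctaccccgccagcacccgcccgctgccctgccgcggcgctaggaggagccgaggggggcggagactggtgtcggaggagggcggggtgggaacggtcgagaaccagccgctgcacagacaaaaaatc
Sesn2: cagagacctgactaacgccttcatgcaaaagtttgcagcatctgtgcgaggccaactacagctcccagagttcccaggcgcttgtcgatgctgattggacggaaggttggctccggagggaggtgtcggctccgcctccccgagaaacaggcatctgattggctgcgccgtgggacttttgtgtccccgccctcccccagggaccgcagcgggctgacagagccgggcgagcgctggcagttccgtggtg
Sesn3: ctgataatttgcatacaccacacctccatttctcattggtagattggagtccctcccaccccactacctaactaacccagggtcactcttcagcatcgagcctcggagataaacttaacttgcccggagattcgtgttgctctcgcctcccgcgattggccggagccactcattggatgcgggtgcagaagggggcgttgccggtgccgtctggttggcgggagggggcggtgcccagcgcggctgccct
Rheb: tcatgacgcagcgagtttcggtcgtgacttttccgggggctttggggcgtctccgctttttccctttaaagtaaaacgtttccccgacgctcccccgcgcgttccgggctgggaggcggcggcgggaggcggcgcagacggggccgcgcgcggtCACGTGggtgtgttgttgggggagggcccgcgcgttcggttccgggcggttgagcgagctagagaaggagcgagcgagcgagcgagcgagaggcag
Windows of 300 bases, from 250 before to 50 after each start, were searched on both strands in all 10 members, both starts of Sesn1 included. CACGTG was found in Rheb alone, 96 to 91 bases before the start, and in 7.15% of 32851 mouse promoter windows of the same length. ACGTG was found in Ddit4, 187 to 183 bases before the start, in Rptor, 34 to 30 bases before it, and in Rheb, where it is contained in the E-box on either strand; 19.6% of all windows held it. TGTTTAC, a FoxO site, was found once, in Sesn1, 23 to 29 bases after its first start, and in 3.65% of all windows. TGATGNAA, a composite site of Atf4, was in no member and in 3.97% of all windows. A match is a description of the letters, and a missing match says nothing about binding outside these windows.

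Against control, most brakes changed in all 3 genotypes, and they did not all go one way. Ddit4 and Sesn2 fell, whereas Sesn1, Sesn3, Tsc1 and Tsc2 rose, in Myc_KO, Max_KO and double_KO alike. Of the 10 genes, 8 passed the test in Myc_KO (5 higher, 3 lower), 6 in Max_KO (4 higher, 2 lower) and 7 in double_KO (5 higher, 2 lower). Over all genes tested, 45.5% passed in Myc_KO (24% higher, 21.4% lower), 39.8% in Max_KO (22.4% higher, 17.4% lower) and 38.7% in double_KO (21.9% higher, 16.8% lower), so large parts of the transcriptome moved, and that rate alone would give 4 or 5 of 10 genes. The median log2 change of the members was 0.34 in Myc_KO, 0.19 in Max_KO and 0.29 in double_KO, beside 0.00, 0.02 and 0.02 over all genes tested. The 3 comparisons share the same 2 control libraries. Changes are from limma on log2 values, with Benjamini-Hochberg adjustment over all genes tested and a threshold of 0.05. In bulk RNA, fewer cells of a type that carries a transcript and less of it per cell cannot be told apart.

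**Figure D1:**
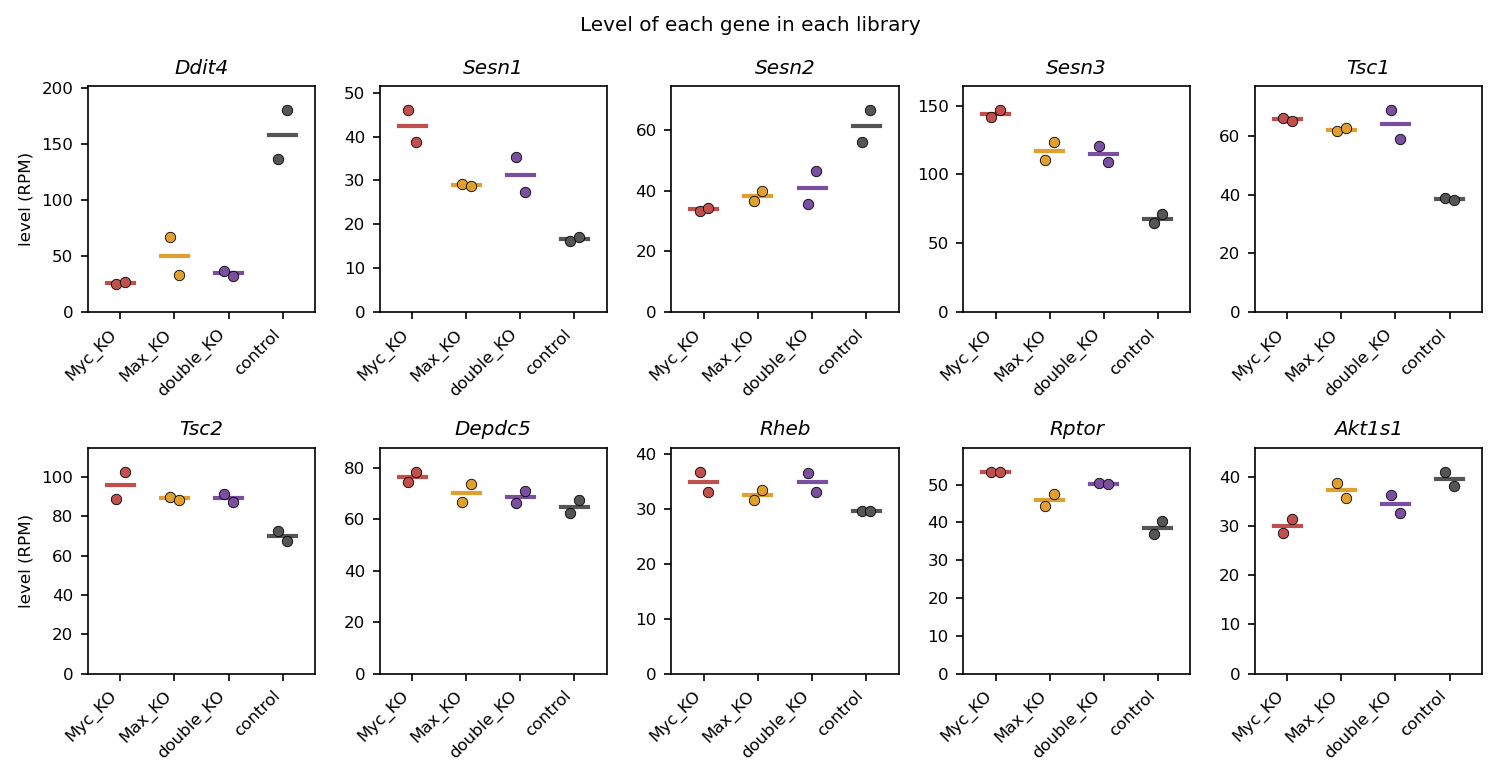
Level in RPM (linear axes from 0) of each of the 10 genes in each library, with Myc_KO, Max_KO and double_KO left of control; each point is 1 library and each line the mean of 2. Ddit4 and Sesn2 are lower in all 6 knock-out libraries than in both controls, and Sesn1, Sesn3, Tsc1, Tsc2 and Rptor are higher.

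Ddit4 (ENSMUSG00000020108, GRCm38 chromosome 10, 59949669 to 59951834, minus strand), the stress-induced brake that acts through the Tsc complex, had the largest change of the 10. It was at 25.1 and 27.2 RPM in Myc_KO, at 66.7 and 32.8 in Max_KO, at 37 and 31.9 in double_KO, and at 136 and 180 in control. No knock-out library reached the lower control, and within Max_KO replicate 1 stood well above replicate 2. The log2 change was −2.58 in Myc_KO, a 5.98-fold lower level (SE 0.291, adjusted p 0.000295). It was −1.74 in Max_KO, 3.34-fold lower (SE 0.291, adjusted p 0.00253), and −2.19 in double_KO, 4.55-fold lower (SE 0.291, adjusted p 0.000931). Per kilobase of exon, Ddit4 was the most abundant member in every group, at 14.9, 28.3 and 19.6 RPM per kb in Myc_KO, Max_KO and double_KO and at 90.03 in control.

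The sestrins split. Sesn1 (ENSMUSG00000038332, chromosome 10, 41809935 to 41908424), known as a p53 and FoxO target, was at 46.0 and 38.9 RPM in Myc_KO, 29.2 and 28.8 in Max_KO, 35.3 and 27.4 in double_KO, and 16.2 and 17.2 in control. Every knock-out library was above both controls, and those of Myc_KO were the highest. Its log2 change was 1.34 in Myc_KO (SE 0.150, adjusted p 0.000292), 0.79 in Max_KO (adjusted p 0.0043) and 0.89 in double_KO (adjusted p 0.00262), or 2.53-fold, 1.73-fold and 1.86-fold higher.

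Sesn3 (ENSMUSG00000032009, chromosome 9, 14275067 to 14333101), a FoxO target in other cells, was at 142 and 147 RPM in Myc_KO, 110 and 123 in Max_KO, 121 and 109 in double_KO, and 64.6 and 71.1 in control. Again all 6 knock-out libraries lay above both controls, with Myc_KO highest. The log2 changes were 1.09 (adjusted p 0.000114), 0.78 (adjusted p 0.000716) and 0.76 (adjusted p 0.000809) in Myc_KO, Max_KO and double_KO, each with an SE of 0.0975.

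Sesn2 (ENSMUSG00000028893, chromosome 4, 132492032 to 132510501), a sestrin that binds leucine and an Atf4 target, went the other way. It was at 33.4 and 34.4 RPM in Myc_KO, 36.7 and 39.99 in Max_KO, 35.6 and 46.4 in double_KO, and 56.0 and 66.5 in control. The knock-out libraries stayed below both controls, and double_KO replicate 2 came nearest to them. The log2 change was −0.85 in Myc_KO (SE 0.147, adjusted p 0.00228), −0.67 in Max_KO (adjusted p 0.00827) and −0.59 in double_KO (adjusted p 0.0148). The call in double_KO is not firm, since the adjusted p was 0.0852 without double_KO replicate 1, 0.109 without control replicate 2 and 0.0942 with the 2 disputed libraries left out. Without control replicate 2 the call in Max_KO was lost as well, at an adjusted p of 0.0694.

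With these opposite directions, the share of Sesn2 among sestrin transcripts was lower in every knock-out library than in control. Per kilobase it was still the largest of the 3 in all knock-out libraries but Myc_KO replicate 1, where Sesn1 led. Of the summed RPM per kb of the 3 genes, Sesn2 made up 31.5% and 33.8% in Myc_KO, 42.1% and 42.9% in Max_KO, 37.9% and 48.8% in double_KO, and 66.0% and 68.1% in control. Sesn1 held 25.2% to 37.97% in the knock-out libraries, against 16.7% and 15.4% in control, and Sesn3 held 26.0% to 32.8%, against 17.3% and 16.6%. In RPM not scaled by length, the 3 sestrins together came to 176 to 221 in the knock-out libraries and to 137 and 155 in control. That sum is weighted toward Sesn3, with 15269 exonic bases against 3982 in Sesn1 and 3475 in Sesn2. It does not show more sestrin transcripts in all. Mean RPM per kb in Myc_KO, Max_KO, double_KO and control was 9.75, 11.0, 11.8 and 17.6 for Sesn2. For Sesn1 it was 10.7, 7.29, 7.87 and 4.20, and for Sesn3 9.45, 7.65, 7.52 and 4.44. The ratio of Sesn3 to Ddit4 in RPM was 5.64 and 5.39 in Myc_KO, 1.65 and 3.76 in Max_KO, 3.26 and 3.41 in double_KO, and 0.475 and 0.395 in control.

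**Figure D2:**
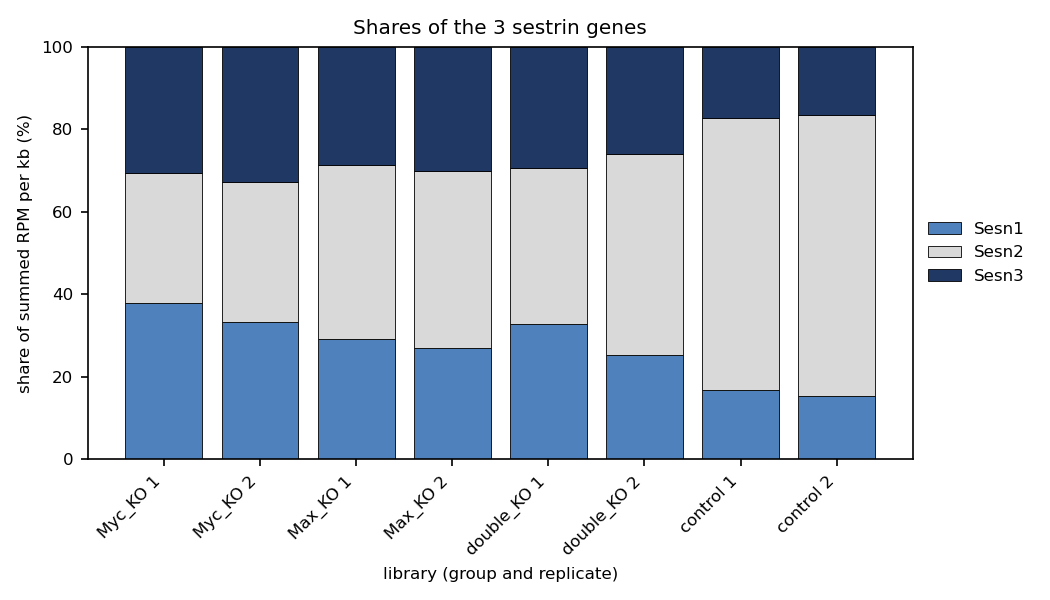
Share in % of the summed RPM per kb of Sesn1, Sesn2 and Sesn3 in each library, knock-out libraries left of control; each bar is 1 library and sums to 100%. Sesn2 takes at most 48.8% in a knock-out library, against 66.0% and 68.1% in the controls.

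Both subunits of the Tsc complex rose. Tsc1 (ENSMUSG00000026812, chromosome 2, 28641228 to 28691167), which stabilises the complex, was at 66.3 and 65.3 RPM in Myc_KO, 61.6 and 62.8 in Max_KO, 68.9 and 59.1 in double_KO, and 39.0 and 38.2 in control. The knock-out groups lay close together and well above the controls, with log2 changes of 0.77 (adjusted p 0.000578), 0.69 (adjusted p 0.00138) and 0.73 (adjusted p 0.00107) in Myc_KO, Max_KO and double_KO, each with an SE of 0.0994. Tsc2 (ENSMUSG00000002496, chromosome 17, 24595816 to 24632630), the subunit that acts on Rheb, changed less. It was at 88.9 and 103 RPM in Myc_KO, 89.6 and 88.5 in Max_KO, 91.4 and 87.4 in double_KO, and 72.4 and 67.2 in control. Every knock-out library lay above both controls, and the knock-out groups overlapped each other. The log2 change was 0.45 in Myc_KO (SE 0.0961, adjusted p 0.0059), 0.35 in Max_KO (adjusted p 0.0205) and 0.36 in double_KO (adjusted p 0.0197). The Myc_KO call held in all 25 alternative fits. The call in Max_KO was lost without either Max_KO library (adjusted p 0.0675 without replicate 1, 0.0702 without replicate 2) and without either control (0.0592 without replicate 1, 0.121 without replicate 2). The call in double_KO was lost without either double_KO library (0.092 without replicate 1, 0.0556 without replicate 2) and without either control (0.0581 without replicate 1, 0.118 without replicate 2). Of the 9620 exonic bases of Tsc2, 693 (7.20%) overlap Pkd1 on the opposite strand, and whether reads were counted by strand was not stated.

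Depdc5 and Rheb passed the test in no genotype. Depdc5 (ENSMUSG00000037426, chromosome 5), a core subunit of GATOR1, was at 74.3 and 78.4 RPM in Myc_KO, 66.6 and 73.6 in Max_KO, 66.3 and 70.9 in double_KO, and 62.3 and 67.4 in control. Its Max_KO and double_KO libraries overlapped the controls, and the log2 changes of 0.24 (SE 0.0958, adjusted p 0.0764), 0.11 (adjusted p 0.39) and 0.08 (adjusted p 0.535) in Myc_KO, Max_KO and double_KO did not pass. Rheb (ENSMUSG00000028945, chromosome 5), the activator that carries the E-box, was at 36.8 and 33.1 RPM in Myc_KO, 31.7 and 33.5 in Max_KO, 36.6 and 33.1 in double_KO, and 29.7 and 29.6 in control. All 6 knock-out libraries were above the controls, but by little, and the log2 changes of 0.23 (SE 0.112, adjusted p 0.121), 0.14 (adjusted p 0.367) and 0.23 (adjusted p 0.137) in Myc_KO, Max_KO and double_KO did not pass. With the groups of the description field limma called Rheb higher in Myc_KO (log2 change 0.31, adjusted p 0.0393).

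Rptor (ENSMUSG00000025583, chromosome 11, 119602905 to 119899576) was at 53.2 and 53.4 RPM in Myc_KO, 44.4 and 47.6 in Max_KO, 50.3 and 50.1 in double_KO, and 36.9 and 40.3 in control. It rose in Myc_KO, by 0.47 on the log2 scale (SE 0.0956, adjusted p 0.00505), and in double_KO, by 0.38 (adjusted p 0.0152). In Max_KO the change of 0.25 did not pass (adjusted p 0.0669). Its double_KO call was lost without either double_KO library (adjusted p 0.0634 without replicate 1, 0.0607 without replicate 2), without control replicate 1 (0.108) and with the 2 disputed libraries left out (0.0752). Akt1s1 (ENSMUSG00000011096, chromosome 7, 44848991 to 44855421) was at 28.6 and 31.5 RPM in Myc_KO, 38.9 and 35.7 in Max_KO, 36.3 and 32.7 in double_KO, and 41.1 and 38.1 in control. The Myc_KO libraries were the lowest and a Max_KO library lay between the controls. In Myc_KO Akt1s1 fell, with a log2 change of −0.40 (SE 0.115, adjusted p 0.022). The changes of −0.09 in Max_KO (adjusted p 0.576) and −0.20 in double_KO (adjusted p 0.203) did not pass. The Myc_KO call was lost without Myc_KO replicate 1 (adjusted p 0.103), without control replicate 1 (0.133), without control replicate 2 (0.0595), with the groups of the description field (0.112) and under same-total scaling (log2 change −0.25, adjusted p 0.1). Akt1s1 shares 89 of 3072 exonic bases with Tbc1d17 on the opposite strand.

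**Figure D3:**
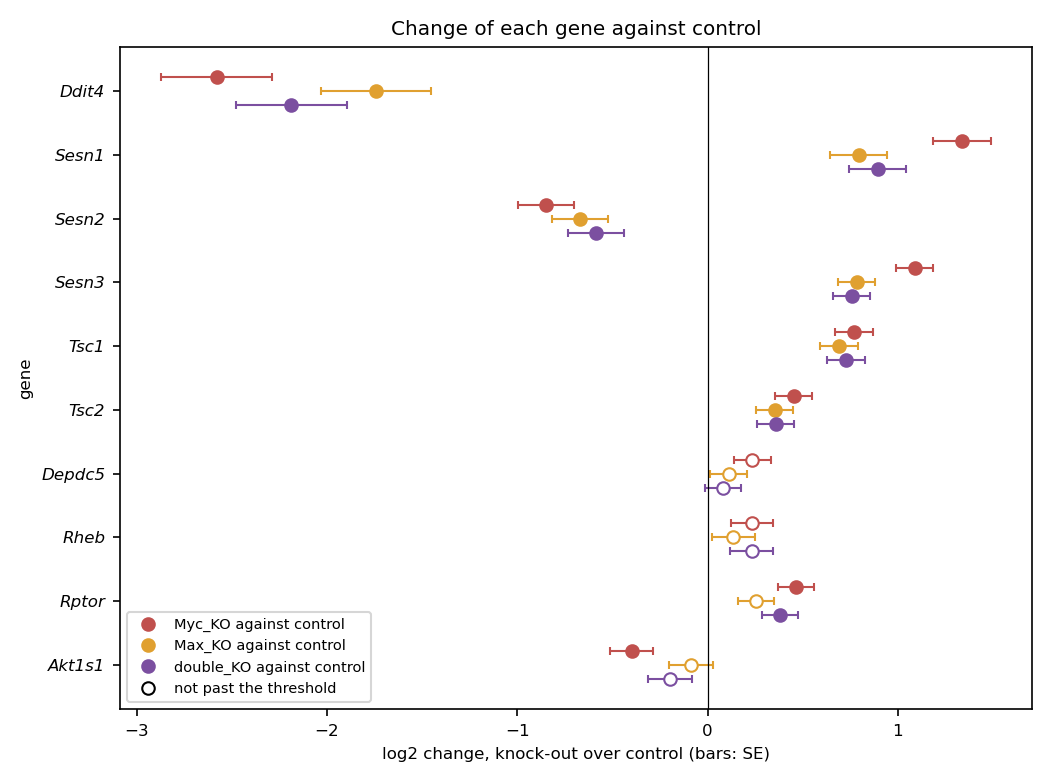
Log2 change of each gene (rows) in Myc_KO, Max_KO and double_KO over control, with bars of 1 SE from limma; filled points passed an adjusted p of 0.05 and open points did not. Ddit4 lies farthest to the left, between −2.58 and −1.74, and Sesn1 farthest to the right, at 1.34 in Myc_KO.

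Set beside each other per kilobase of exon, Ddit4 in Myc_KO, at 14.9 RPM per kb, was followed closely by Sesn1 at 10.7, Tsc2 at 9.96, Akt1s1 at 9.78, Sesn2 at 9.75 and Sesn3 at 9.45. In control Ddit4 stood farther apart, and the order ran from Ddit4 at 90.03 RPM per kb through Sesn2 at 17.6, Akt1s1 at 12.9, Tsc2 at 7.26, Depdc5 at 5.51, Sesn3 at 4.44, Sesn1 at 4.202, Rheb at 3.84 and Tsc1 at 3.26 to Rptor at 2.87. These lengths are those of all annotated exons joined, not of the transcripts used in these cells.

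Between knock-outs no member passed the test, where 4.13% of all genes tested passed for Max_KO against Myc_KO, 0.458% for double_KO against Myc_KO and 0.0402% for double_KO against Max_KO. At an unadjusted p of 0.05 limma called 4, 2 and 0 members in these 3 comparisons. The share of all genes at that threshold was not taken, so these counts have no background to be read against. The widest of these differences was that of Ddit4, higher in Max_KO than in Myc_KO by 0.84 on the log2 scale (SE 0.291, adjusted p 0.164). Without Max_KO replicate 2, the lower of that pair, it was 1.35, and without replicate 1 it was 0.33. The size of this difference thus rests on Max_KO replicate 1, at 66.7 RPM against 32.8 in replicate 2. Sesn1 was lower in Max_KO than in Myc_KO by a log2 difference of −0.54 (adjusted p 0.0921) and lower in double_KO than in Myc_KO by −0.44 (adjusted p 0.278). Sesn3 was lower than in Myc_KO by −0.31 in Max_KO (adjusted p 0.133) and by −0.33 in double_KO (adjusted p 0.216). Loss of the second factor therefore went with no called change of any member, which does not show that the genotypes were alike.

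In double_KO the changes of the single knock-outs did not add up. Max itself was less reduced there, at a mean of 29.9 RPM, against 15.9 in Max_KO and 54.7 in control. The libraries of double_KO and Max_KO did not overlap for Max, and limma gave a log2 difference of 0.91 (SE 0.117, unadjusted p 4.67e-05). After adjustment limma did not call Max for double_KO against Max_KO (adjusted p 0.0968), and its part in the sums was not tested. The interaction asks whether the log2 change in double_KO departs from the sum of the changes in the single knock-outs, and 6 of 10 members passed it, 2 with a positive and 4 with a negative difference, where 27.4% of all genes tested did (12.4% positive, 15% negative). For all 6 the change in double_KO was smaller in size than the sum. Ddit4 changed by −2.19 in double_KO, against a sum of −4.32, a difference of 2.13 (SE 0.411, adjusted p 0.00771). Sesn1 changed by 0.89 in double_KO against a sum of 2.13, a difference of −1.24 (SE 0.212, adjusted p 0.00496). Sesn3 changed by 0.76 against a sum of 1.87 (difference −1.11, SE 0.138, adjusted p 0.00158), Tsc1 by 0.73 against 1.46 (difference −0.73, adjusted p 0.00758), Sesn2 by −0.59 against −1.52 (difference 0.93, adjusted p 0.0136) and Tsc2 by 0.36 against 0.80 (difference −0.45, adjusted p 0.0419). Depdc5, Rheb, Rptor and Akt1s1 did not pass. The call of Sesn2 was lost without control replicate 2 (adjusted p 0.0584). The call of Tsc2 was lost in 16 of 24 alternative fits, with a difference of −0.28 (adjusted p 0.195) for the groups of the description field.

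**Figure D4:**
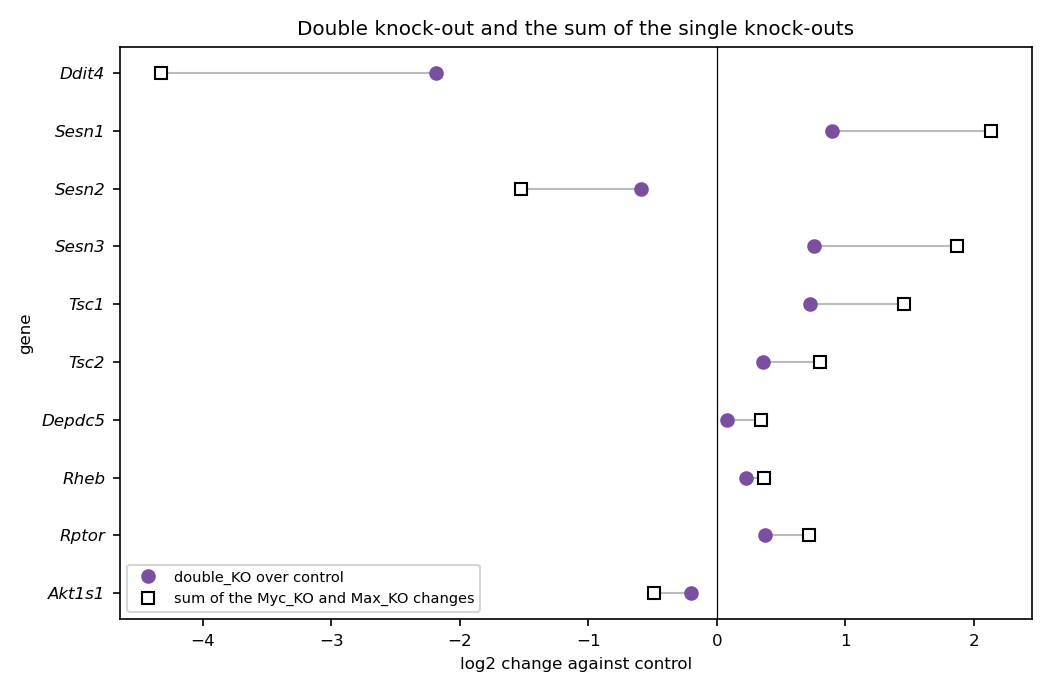
Log2 change against control of each gene (rows) in double_KO (filled circles) and the sum of the Myc_KO and Max_KO changes (open squares); no error is drawn, and grey lines join the pair of a gene. Every circle lies nearer to 0 than its square, and the gap is widest for Ddit4, at −2.19 in double_KO against a sum of −4.32.

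Other parts of the pathway were read from 9 lists of textbook genes, of which 107 genes were tested. Over all genes tested, 24%, 22.4% and 21.9% were higher in Myc_KO, Max_KO and double_KO, and 21.4%, 17.4% and 16.8% were lower. The counts of each list below are to be read beside these shares. Of the 107 genes, 47 passed in Myc_KO, 45 in Max_KO and 43 in double_KO (43.9%, 42.1% and 40.2%). This was close to the share of all genes tested (45.5%, 39.8% and 38.7%). Without control replicate 1 the totals were 33 in Myc_KO, 28 in Max_KO and 26 in double_KO, and without control replicate 2 double_KO had 24.

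Among 9 components of the mTOR complexes, 3 were higher in Myc_KO, 3 in Max_KO and 2 in double_KO, and none was lower. Mapkap1, a subunit of mTORC2, was at 64.2 and 68.8 RPM in Myc_KO, 65.5 and 75.4 in Max_KO, 69.4 and 70.1 in double_KO, and 46.9 and 43.1 in control, and its 3 calls held in all 25 alternative fits. Mtor, the kinase itself, was higher by 0.39, 0.39 and 0.43 on the log2 scale in Myc_KO, Max_KO and double_KO (limma adjusted p 0.00666, 0.00768 and 0.00517). Without control replicate 2 its call in Max_KO was lost (adjusted p 0.0541), and 1 of the 9 was called there; without double_KO replicate 2 there were 4 in double_KO. Rictor, the mTORC2 scaffold, passed in Myc_KO, with a log2 change of 0.82 (limma adjusted p 0.0196). That call was lost in 7 of 25 alternative fits, among them those without Myc_KO replicate 2 (log2 change 0.53, adjusted p 0.111), without control replicate 1 (0.0822) or 2 (0.0943), and with the groups of the description field (log2 change 0.43, adjusted p 0.0587). Tti1, which helps assemble the kinase, passed in Max_KO, with a log2 change of 0.55 (limma adjusted p 0.0268), and lost its call in 4 of 25, without Max_KO replicate 1 (0.128), without control replicate 1 (0.125) or 2 (0.0992) and with eBayes lacking a trend (0.0603).

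Of 6 GATOR1 and KICSTOR genes, BC048403, the KICSTOR subunit also called Kics2, rose in all 3 genotypes. It was at 12.1 and 13.6 RPM in Myc_KO, 15.6 and 21.6 in Max_KO, 16.2 and 17.1 in double_KO, and 9.15 and 7.22 in control. Its Myc_KO call was lost in 5 of 25 alternative fits, among them those without Myc_KO replicate 2 and without control replicate 2. Nprl2, which joins Depdc5 in GATOR1, had log2 changes of −0.47 in Max_KO and −0.55 in double_KO (limma adjusted p 0.0374 and 0.02). Both calls were lost without either control, and also without Max_KO replicate 2 or double_KO replicate 2. Of 10 genes of GATOR2 and the amino acid sensors, none rose. Castor1, the arginine sensor, was lower in Myc_KO by a log2 change of −0.85 (limma adjusted p 0.0239), and the GATOR2 subunits Wdr24 and Wdr59 were lower in Max_KO by −0.35 and −0.32 (adjusted p 0.0407 and 0.044). None of these 3 calls held without control replicate 1 or without control replicate 2, and no gene of this list passed in double_KO.

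Of 12 genes of the Rag GTPases and their lysosomal platform, 2 were higher and 2 lower in Myc_KO, 2 were higher in Max_KO and 3 in double_KO. Rraga, a Rag GTPase, was at 71.3 and 87.8 RPM in Myc_KO, 83.4 and 95.5 in Max_KO, 81.1 and 88.7 in double_KO, and 55.6 and 52.2 in control. Fnip1, a folliculin partner, was at 53.4 and 56.1 RPM in Myc_KO, 38.3 and 55.4 in Max_KO, 40.8 and 48.4 in double_KO, and 24.0 and 25.7 in control. Both rose in all 3 genotypes. Rraga lost its Myc_KO call without control replicate 2 (adjusted p 0.0532), where 1 gene of the list was called, and Fnip1 its double_KO call without control replicate 1 (0.0521), again with 1 gene called.

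Of 23 energy and growth factor inputs, 16 passed in Myc_KO (12 higher, 4 lower), 13 in Max_KO (11 higher, 2 lower) and 16 in double_KO (11 higher, 5 lower). Without control replicate 2 these counts were 10, 8 and 9, and without control replicate 1 Max_KO had 7 and double_KO 9. Without its own replicate 2, Max_KO had 7 and double_KO 8. Rps6ka3, a kinase downstream of ERK, was at 59.0 and 58.3 RPM in Myc_KO, 42.6 and 45.6 in Max_KO, 49.0 and 48.8 in double_KO, and 21.8 and 23.8 in control. Pik3r1, the regulatory subunit of PI3 kinase, and Pdpk1, the kinase that activates Akt, rose in all 3 genotypes as well. Stk11, the upstream kinase of AMPK, which restrains mTORC1, fell in each. It was at 119 and 128 RPM in Myc_KO, 150 and 132 in Max_KO, 135 and 128 in double_KO, and 216 and 200 in control.

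Of 17 effectors downstream of mTORC1, 7 passed in Myc_KO (2 higher, 5 lower), 6 in Max_KO (2 higher, 4 lower) and 8 in double_KO (3 higher, 5 lower). Of all genes tested, 45.5%, 39.8% and 38.7% passed, so these counts are near that share. The double_KO count was 5 and 4 without double_KO replicate 1 or 2, and 4 and 3 without control replicate 1 or 2. The translation repressors of the 4E-BP family split. Eif4ebp1 was at 16.3 and 18.4 RPM in Myc_KO, 24.8 and 18.8 in Max_KO, 22.9 and 26.8 in double_KO, and 46.7 and 49.2 in control. Eif4ebp2 was at 89.6 and 87.8 RPM in Myc_KO, 94.3 and 95.1 in Max_KO, 90.5 and 92.5 in double_KO, and 57.5 and 59.2 in control. Eif4ebp1 thus fell and Eif4ebp2 rose in each genotype, with calls that held in all 25 alternative fits. Rps6, the ribosomal protein phosphorylated downstream of mTORC1, had log2 changes of −1.20, −0.97 and −1.02 in Myc_KO, Max_KO and double_KO (limma adjusted p 5.64e-05, 0.000238 and 0.000205). Under quantile normalization these were −0.44, −0.35 and −0.38, still past the threshold. Reads of ribosomal protein genes can be shared with near-identical pseudogenes.

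Of 9 transcription factors known to switch on Ddit4 or the sestrins, 5 passed in Myc_KO (4 higher, 1 lower), 4 in Max_KO (3 higher, 1 lower) and 4 in double_KO, all higher. Without double_KO replicate 1 or without control replicate 2 the double_KO count was 2. Hif1a, which induces Ddit4 in low oxygen, was at 120 and 113 RPM in Myc_KO, 131 and 123 in Max_KO, 129 and 116 in double_KO, and 59.5 and 60.3 in control. Nr3c1, the glucocorticoid receptor, another inducer of Ddit4, was at 161 and 149 RPM in Myc_KO, 95.7 and 105 in Max_KO, 123 and 111 in double_KO, and 47.7 and 53.8 in control. Both rose in each genotype, where Ddit4 fell. Foxo1, an inducer of Sesn1 and Sesn3 in other cells, was at 170 and 183 RPM in Myc_KO, 160 and 153 in Max_KO, 150 and 142 in double_KO, and 122 and 110 in control. It rose in each genotype, and its double_KO call was lost in 5 of 25 alternative fits, among them those without double_KO replicate 1 and without control replicate 2.

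Of 12 Atf4 targets, 5 were lower in Myc_KO, 6 in Max_KO and 2 in double_KO, and none was higher. Without control replicate 1 the counts were 3, 2 and 1; without Myc_KO replicate 1 the Myc_KO count was 3, without Max_KO replicate 1 the Max_KO count was 3, and without control replicate 2 the double_KO count was 1. Atf5, a transcription factor of the same stress response, was at 24.0 and 24.6 RPM in Myc_KO, 27.9 and 27.6 in Max_KO, 29.2 and 29.1 in double_KO, and 47.7 and 41.1 in control. Of 9 p53 targets, 5 were lower in Myc_KO, 7 in Max_KO and 6 in double_KO, and none was higher. Of all genes tested, 21.4%, 17.4% and 16.8% were lower in these genotypes. Cdkn1a, the cell cycle inhibitor p21, was at 20.8 and 16.6 RPM in Myc_KO, 16.7 and 10.9 in Max_KO, 17.0 and 22.3 in double_KO, and 43.4 and 62.0 in control. Bax, a promoter of cell death, was at 87.1 and 87.8 RPM in Myc_KO, 104 and 89.3 in Max_KO, 103 and 93.8 in double_KO, and 151 and 159 in control. Both fell in each genotype in all 25 alternative fits, whereas Sesn1, also known as a p53 target, rose in the same libraries.

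**Figure D5:**
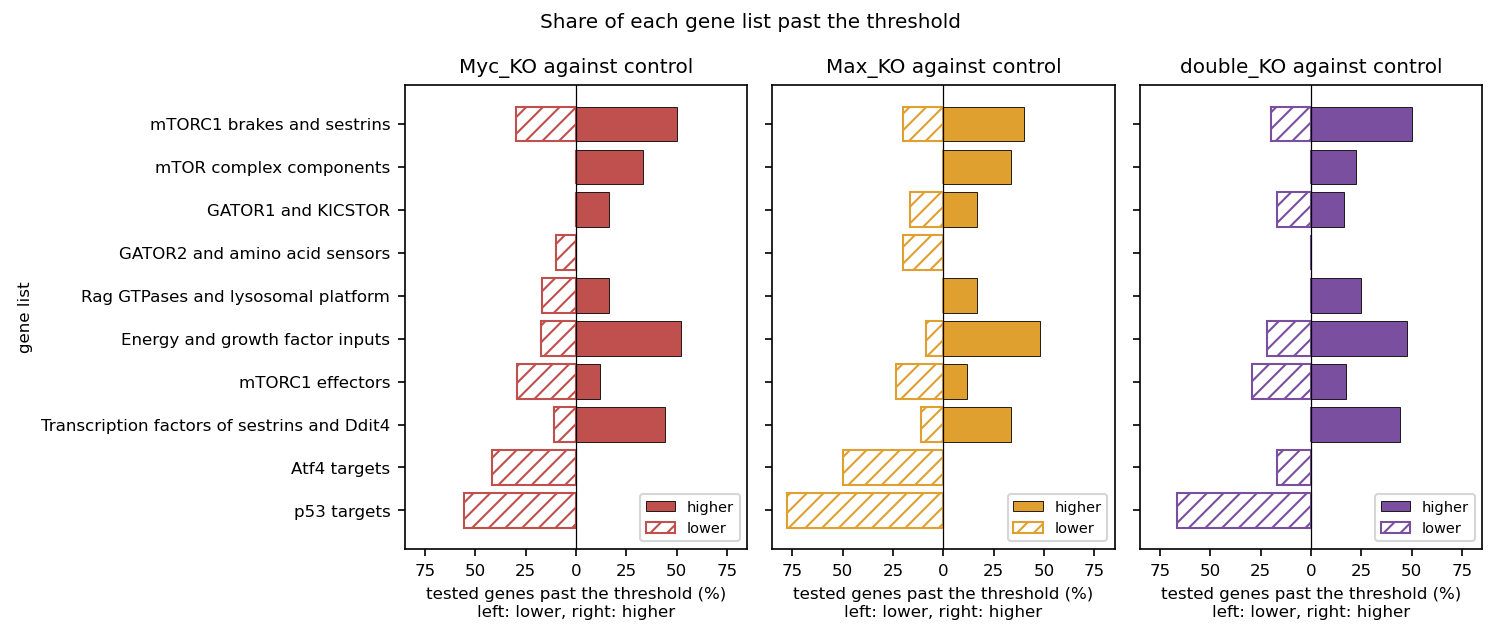
Share in % of the tested genes of each list (rows) that passed an adjusted p of 0.05 in Myc_KO, Max_KO and double_KO against control; filled bars to the right are genes that were higher and hatched bars to the left genes that were lower. The Atf4 and p53 target lists have bars to the left alone, as has the GATOR2 and amino acid sensor list, which has no bar in double_KO. The brakes and sestrins, the energy and growth factor inputs and the mTORC1 effectors have bars on both sides in each genotype.

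For the 3 members whose group means spanned 1 or more on the log2 scale, the genes most like them over the 8 libraries were taken from 11075 others by Pearson's r of the log2 values, given without a test. Ddit4 was nearest to Gadd45g, Zfp395 and Ogt (r 0.997 each), Sesn1 to Klc2, Vezf1 and Golga4 (r 0.991 each) and Sesn3 to Nrbp1 (r 0.998), Scmh1 and Myl12b (r 0.996 each). The 8 points share the split between knock-out and control libraries, which is common to all 3 members.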

How the data were processed

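RNA of 8 libraries was read from 1 table of 15681 genes deposited by the authors as log2 values, from -5.23 to 14.51. RSEM 1.2.3, cutadapt and CASAVA 1.8, and the build GRCm38, are named in the submitters' processing notes; the annotation, the strand setting and the log2 tool were not given in the sources used here. Read from the values, each deposited log2 value is that of (estimated reads + 0.5) per 1 M of an effective library size. Taking the lowest value of a library as 0 reads recovered reads in steps of 0.01 read; the effective size makes changes relative to the bulk of a library's genes, not to the cell. RSEM divides reads of near-identical genes by its estimate.

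Symbols and coordinates came from GENCODE vM21 by gene identifier (15622 genes with a symbol). Genes at 1 RPM or more in 2 libraries were fitted in R 4.3.3 with lmFit and eBayes (trend) of limma 3.58.1 (4 residual and 4.22 prior degrees of freedom), all 8 libraries in 1 model of the 4 groups, two-sided. The design allowed for values not yet on a log scale; as they were log2 values, they were used as deposited. No count test was run, since estimated reads are not whole. The fit was tested on simulated data. Tables and figures used Python 3.11.15, pandas 2.3.3, numpy 2.4.6 and matplotlib 3.10.9.

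The members, the 9 lists of 113 entries (112 in the table, 107 tested) and the 6 marker lists were chosen with earlier results of these data known. Named were all members and, per list, up to 3 called genes by lowest adjusted p in a comparison with control; the text gives part of these. Alternatives were other groupings, scalings, filters, offsets, fits and left-out libraries. Same-numbered control and Max_KO libraries had deviations correlated at -0.108; the labels do not say that a number marks a shared mouse or day. The numbers in the sample titles fall into the 30s and 40s, both controls having numbers in the 30s; no label says whether these are batches.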

Additional observations from a re-analysis of the deposited data

Results flagged for a closer look

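For 6 members the log2 change in double_KO differed from the sum of the single knock-outs by limma's interaction test (Benjamini-Hochberg adjusted p in brackets). The difference was 2.13 for Ddit4 (0.00771), −1.24 for Sesn1 (0.00496), 0.93 for Sesn2 (0.0136), −1.11 for Sesn3 (0.00158), −0.73 for Tsc1 (0.00758) and −0.45 for Tsc2 (0.0419). Each lay on the side of a smaller change in double_KO than the sum. All 4 groups enter each value, both controls included. Max RNA was less reduced in double_KO than in Max_KO, and the part of this was not tested. With the replicate block Ddit4 was at 1.82 (0.0615).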

How the results depend on the processing

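The calls of Ddit4, Sesn1, Sesn3 and Tsc1 against control held in all 25 alternative fits in each genotype, as did those of Sesn2, Tsc2 and Rptor in Myc_KO. The count of members called in double_KO was 4 with the 2 disputed libraries left out and 4 at a threshold of 0.01; leaving out 1 library each gave 4 to 7. For Max_KO against Myc_KO, with 0 members called, the number series as a term gave 1. The libraries numbered in the 30s leave every knock-out group without a replicate, so the spread rests on the controls alone. Their counts of calls are therefore left out. In them the log2 difference of Max_KO from Myc_KO was 1.41 for Ddit4 and −0.66 for Sesn1. Their Max_KO library is replicate 1, the higher of the pair for Ddit4. The direction turned for Depdc5 in double_KO under quantile normalization (log2 change −0.023) and for Akt1s1 in Max_KO under same-total scaling (0.019), neither called; the cause was not tested.

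Same-total scaling moved the median log2 change of all genes to 0.15, 0.13 and 0.15 in Myc_KO, Max_KO and double_KO, and the share of calls that were higher to 66.5%, 66.7% and 68.9%, against 52.9%, 56.2% and 56.6%; members called were then 9, 7 and 8, by the addition of Depdc5, Rheb and Rptor and the loss of Akt1s1. With the replicate block the counts were 7, 6 and 6, and 4 for the interaction, where calls over all genes were 1293 against 3413. With the numbers crossed between control and Max_KO, a pairing chosen after seeing the data, as were the 30s libraries alone, the counts were 7, 6 and 5, and 1 for Max_KO against Myc_KO. With 2 libraries a group and total depths of 14.88 to 17.91 M reads, the number of libraries limits the precision. Interaction and between-genotype values rest on which of the 2 disputed libraries is which: with the groups of the description field, 13 genes in all passed for Max_KO against Myc_KO, against 514. Max RNA in these 2 libraries, at 59.8 RPM in Myc_KO replicate 2 and 28.6 in double_KO replicate 1, went with the titles used here.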
